A study of Mus musculus with 7 samples.

Results

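Integrins and cadherins are the 2 large families of receptors by which cells hold on to matrix and to each other. The genes described here were chosen by symbol alone: every gene in the count tables named Itga or Itgb followed by digits, with Itga2b, and every gene named Cdh followed by digits. Binding-protein genes and Itga8 were left out. The rule found 42 of the 37620 genes in the tables, namely 11 integrin alpha genes, 8 integrin beta genes and 23 cadherin genes. It is wider than the classical cadherins, since it also takes in Cdh13, whose product hangs on a lipid anchor and has no cytoplasmic tail, Cdh16 and Cdh17, whose products have extra ectodomain repeats and short tails, and Cdh23, a part of the tip links of hair cells. It leaves out the integrin subunits named by letters, which are given below as partners. Reads were high enough to test 40 of the 42. Cdh16 had no read in any tumour, and Cdh17 was at 0.159 to 0.580 CPM.

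RNA-seq was done on 7 mouse brain tumours. Each grew in a nude mouse, a host with no thymus and few T cells, from implanted tumour cells whose origin is the neural stem cell of the subventricular zone. The 4 GSC1 tumours have the genotype lgT/Ras, and the 3 GSC2 tumours have shp53 (a short hairpin against p53), Nf1-/- and CDK4. Cells of both lines spent 10 to 15 passages in neural stem cell culture first. The labels do not give the promoters of the introduced genes, the age or sex of the hosts, or whether a line is 1 clone, and there is 1 line per genotype, so line and genotype cannot be told apart. The tumours are described as independent, and p-values measure the spread between them. Levels are in CPM, read counts scaled by library size after TMM, a correction for differences in composition. Group values are mean ± SD (GSC1 n = 4, GSC2 n = 3).

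An integrin is a pair of 1 alpha and 1 beta subunit. The alpha subunit sets most of the choice of ligand, and the tail of the beta subunit binds talin and kindlin, which tie the receptor to actin. Integrin beta 1 is the partner of most alpha subunits, while the subunits beta 3, beta 5, beta 6 and beta 8 pair with alpha V. Classical cadherins bind the same kind of cadherin on the next cell and hold beta-catenin, p120-catenin and, through them, alpha-catenin at the membrane. In the brain, N-cadherin (Cdh2) joins neural stem cells and astrocytes, the many type II cadherins mark sets of neurons by region, and VE-cadherin (Cdh5) seals endothelium. In glioma, integrins of laminin, fibronectin and vitronectin are known for their part in adhesion and invasion.

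Several features of the libraries touch the results. Between 18643155 and 32643408 reads were counted on genes in each library. The content of normal brain differed between tumours of the same line. A brain score, the mean log2 CPM of 10 neuron and 10 mature oligodendrocyte genes, was 6.20, 4.91, 8.67 and 7.98 for GSC1 (replicates 1 to 4) and 6.26, 7.81 and 7.54 for GSC2 (replicates 1 to 3). GSC1 replicates 3 and 4 held hindbrain genes, with Hoxb5 at 209 and 49.6 CPM and at most 0.0501 CPM in the other 5. Long transcripts read low in replicate 3 of both lines and in GSC1 replicate 4: genes whose transcript reaches 8000 bases had a median log2 deviation that differed from that of genes up to 2000 bases by -0.40 and -0.36 in GSC1 replicates 3 and 4 and by -0.70 in GSC2 replicate 3, against 0.02 to 0.64 in the other 4. These 3 are called the short-biased libraries. The neural stem cell genes Sox2 and Nes and the glial progenitor gene Olig2 were present in every tumour, at 70.7 to 199 CPM, 116 to 662 CPM and 38.1 to 76.2 CPM. Trp53, the target of the hairpin in GSC2, was at 221, 236, 77.2 and 84.8 CPM for GSC1 replicates 1 to 4 and 191, 113 and 127 CPM for GSC2 replicates 1 to 3; a total over the gene, host cells included, does not check the labels. In bulk tissue, fewer cells of a type and less RNA per cell cannot be told apart.

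Itgb1 was the most abundant member. Set per length of transcript, so that genes can be compared, its mean over the 7 tumours was 236 CPM per kilobase, followed among beta subunits by Itgb5 at 80.5, the leukocyte subunit gene Itgb2 at 20.4 and Itgb8 at 14.2 CPM per kilobase. The laminin receptor genes Itga6 and Itga7 led the alpha subunits at 33.2 and 30.4 CPM per kilobase. Itga5, for the fibronectin receptor, and Itga3, for another laminin receptor, followed at 19.4 and 17.6. No other alpha member passed 2.03 CPM per kilobase, the mean of Itga1. Among the cadherins Cdh2 led at 60.6 CPM per kilobase, ahead of Cdh13 at 32.5, Cdh15 at 9.74 and Cdh5 at 6.12. Cdh1, the gene of E-cadherin, had a mean of 0.967 CPM per kilobase. Itgb1 and Itgb5 each stood above the next beta subunit with no overlap over the tumours. The ranges overlapped for Itgb2 and Itgb8 and for every pair of neighbours among the 4 leading alpha subunits and the 4 leading cadherins. Within each tumour, however, Itga7 stood above Itga5, Cdh2 above Cdh13 and Cdh13 above Cdh15. The order of Itgb2 and Itgb8, of Itga6 and Itga7, of Itga5 and Itga3, and of Cdh15 and Cdh5 changed between tumours.

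**Figure D1:**
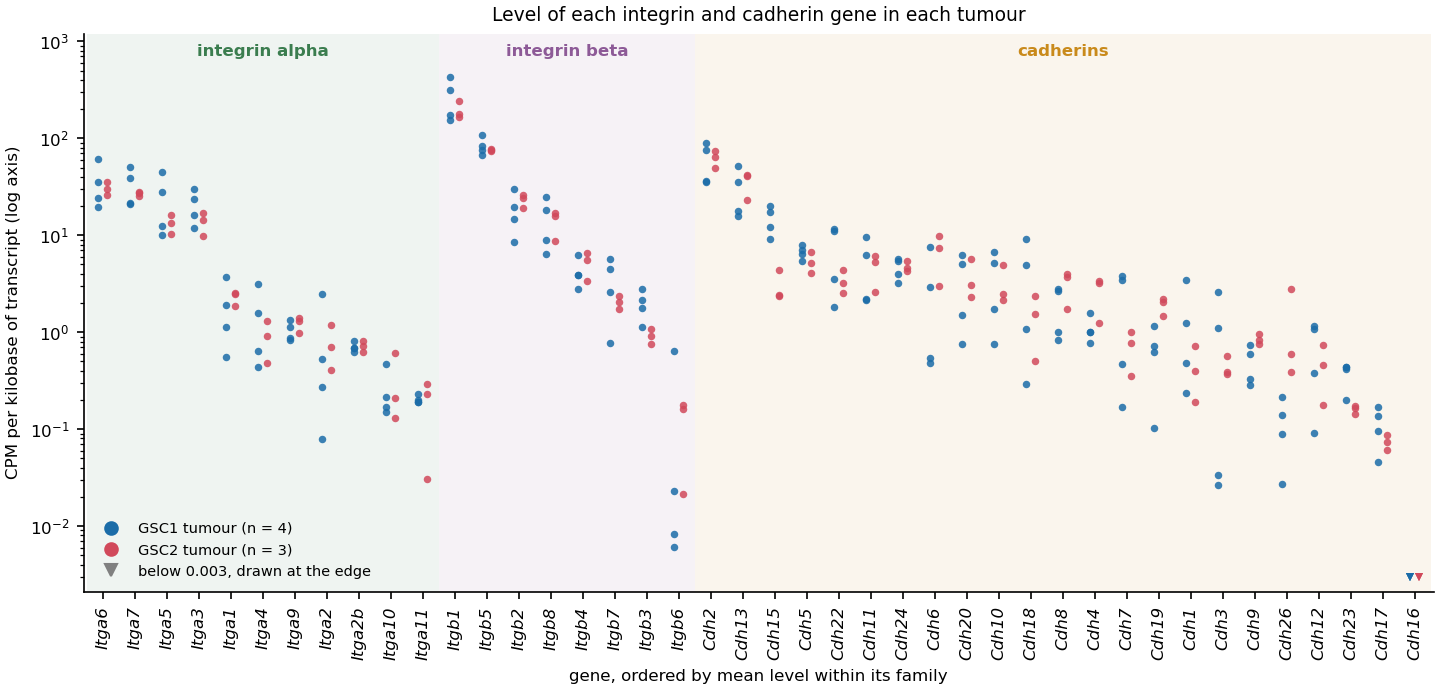
Level of each of the 42 genes in each of the 7 tumours, in CPM per kilobase of transcript on a log axis, by family and ordered by mean. Blue points are GSC1 tumours (n = 4) and red points GSC2 tumours (n = 3). Itgb1 stands highest, at a mean of 236, the points of the lines overlap for most genes, and the blue points of Cdh15 stand above the red ones.

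No member passed the test between the lines. None of the 40 had an adjusted p under 0.05 in edgeR's quasi-likelihood test of GSC2 against GSC1 over 16068 genes, where 0% of all genes passed. An unadjusted p under 0.05 was found for 5 of the 40 (12.5%), Cdh15, Cdh23 and Itgb3 lower and Cdh26 and Cdh4 higher in GSC2, where 4.21% of all genes tested had one. For 6 of the 40 (15%) every tumour of 1 line stood above every tumour of the other, with Cdh19 and Cdh9 in place of Cdh4, against 5.58% of all genes. Of these, 3 were higher in GSC2 (3.05% of all genes were) and 3 higher in GSC1 (2.53%). DESeq2 called 2 of the 40, Cdh15 lower and Cdh26 higher in GSC2, among 192 genes in all (1.2% of those it tested, 0.55% higher and 0.65% lower), and limma-voom called 0, with 0.00622% of all genes called. Without the short-biased libraries edgeR also called 0 members, with 0.348% of all genes called, and Itgb6 was not tested. The median log2 fold change, GSC2 minus GSC1, was -0.14 over the 11 alpha subunits, -0.29 over the 8 beta subunits and -0.12 over the 21 cadherins tested, against -0.03 over all genes. Positive folds were found in 4 of 11, 2 of 8 and 10 of 21.

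Cdh15 came nearest to separating the lines. It encodes M-cadherin, a type I cadherin known from skeletal muscle precursors and from granule cells of the cerebellum. Its level was 65.9, 56.8, 39.3 and 29.9 CPM for GSC1 replicates 1 to 4 and 7.63, 14.2 and 7.87 CPM for GSC2 replicates 1 to 3. All GSC1 tumours stood above all GSC2 tumours, with a mean of 48.0 ± 16.3 CPM for GSC1 and of 9.91 ± 3.75 CPM for GSC2 (log2 fold change -2.27 with SE 0.40, edgeR quasi-likelihood test, unadjusted p = 0.000572, adjusted p = 0.337, and adjusted p = 9.16e-06 in DESeq2). With the brain score as a covariate, Cdh15 was the sole member called (log2 fold change -2.18 with SE 0.34, edgeR adjusted p = 0.0453), among 83 genes in all (0.517%, of which 0.361% higher and 0.156% lower). DESeq2 called 9 members at equal score, Cdh4, Cdh6, Cdh19 and Cdh26 higher and Cdh7, Cdh15, Cdh22, Cdh23 and Itgb3 lower in GSC2, where it called 6.42% of all genes, 3.71% higher and 2.71% lower. The edgeR call of Cdh15 was lost without GSC1 replicate 1 (edgeR adjusted p = 0.0866), GSC1 replicate 2 (0.185), GSC1 replicate 3 (0.139), GSC2 replicate 1 (0.19) or GSC2 replicate 3 (0.0748), and without both tumours with hindbrain genes (0.207). The log2 fold change in these fits lay between -1.90 and -2.23 with 1 tumour left out and was -3.27 without the tumours with hindbrain genes. Without the short-biased libraries, in a fit on the 4 tumours left, the log2 fold change was -3.16 (edgeR adjusted p = 0.000341). There the GSC2 scores (6.26 and 7.81) both lay above the GSC1 scores (6.20 and 4.91). The lines were thus compared at equal score by extrapolation only, and this fit does not decide whether the call holds. The same limit applies to the fit without both tumours with hindbrain genes. Its GSC2 scores (6.26, 7.81 and 7.54) also all lay above the GSC1 scores (6.20 and 4.91), so the loss of the call there decides nothing either.

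Markers of cerebellum and muscle, the tissues where Cdh15 is known, were read beside it. The granule cell gene Cbln3 was at 0, 0.0735, 1.31 and 245 CPM for GSC1 replicates 1 to 4 and 0, 0.210 and 0.200 CPM for GSC2 replicates 1 to 3. It was high in GSC1 replicate 4, the lowest GSC1 tumour for Cdh15, and at or near 0 in GSC1 replicates 1 and 2, the highest. The summed level of the 7 genes of a cerebellar granule and Purkinje cell list was 16.9, 7.02, 224 and 1045 CPM for GSC1 replicates 1 to 4 and 36.4, 151 and 169.6 CPM for GSC2 replicates 1 to 3. Skeletal muscle genes, looked up after the values of Cdh15 had been seen, were low: Myod1, Myf5, Pax7 and Ckm were at most 0.381 CPM in any tumour, and Acta1, skeletal muscle actin, was at 1.91, 0.0735, 1.51 and 1.05 CPM for GSC1 and 0.661, 1.26 and 2.00 CPM for GSC2, by replicate. The part of these tissues in the level of Cdh15 was not tested.

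Itgb3 and Cdh23 were the other members with all GSC1 tumours above all GSC2 tumours. Itgb3, the beta subunit of the vitronectin receptor and of the platelet fibrinogen receptor, was at 10.3, 12.6, 16.1 and 6.57 CPM for GSC1 replicates 1 to 4 and 4.38, 6.31 and 5.31 CPM for GSC2 replicates 1 to 3 (log2 fold change -1.09 with SE 0.38, edgeR unadjusted p = 0.0206). The gap was narrow, since GSC1 replicate 4 lay just above GSC2 replicate 2. Its partner on platelets, Itga2b, did not separate the lines and was steady at 2.13 to 2.78 CPM, and of the 7 platelet and megakaryocyte markers none passed 2.51 CPM and Gp6 had no read in any tumour. Its other partner, Itgav, was at 246, 467, 231 and 262 CPM for GSC1 and 299, 359.9 and 266 CPM for GSC2, by replicate. Cdh23 was at 2.23, 4.63, 4.89 and 4.86 CPM for GSC1 and 1.58, 1.82 and 1.90 CPM for GSC2, by replicate (log2 fold change -1.23 with SE 0.42, edgeR unadjusted p = 0.0206). GSC1 replicate 1 lay closer to the GSC2 tumours than to the rest of its own line, and these levels are low for a transcript of 11096 bases.

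The members with higher means in GSC2 named here were all cadherins with a mean of at most 1.74 CPM per kilobase. Cdh26, a cadherin of epithelia, was at 0.261, 0.404, 0.0795 and 0.619 CPM for GSC1 replicates 1 to 4 and 1.12, 1.72 and 8.12 CPM for GSC2 replicates 1 to 3 (log2 fold change 3.41 with SE 0.92, edgeR unadjusted p = 0.00671, adjusted p = 0.023 in DESeq2). GSC2 replicate 3 alone was above 2 CPM, and without it the log2 fold change was 2.06. Cdh4, R-cadherin, a type I cadherin of neural tissue, was at 6.35, 4.93, 6.44 and 10.1 CPM for GSC1 and 7.89, 21.7 and 20.6 CPM for GSC2, by replicate (log2 fold change 1.27 with SE 0.43, edgeR unadjusted p = 0.0199); GSC2 replicate 1 lay inside the range of GSC1. Cdh19, a cadherin of glia and neural crest, was at 2.84, 0.404, 2.46 and 4.52 CPM for GSC1 and 5.70, 8.66 and 8.02 CPM for GSC2, by replicate (log2 fold change 1.55 with SE 0.68, edgeR unadjusted p = 0.0562). Cdh9, a type II cadherin of neurons, was at 2.09, 1.18, 2.62 and 1.00 CPM for GSC1 and 2.65, 3.40 and 2.91 CPM for GSC2, by replicate (log2 fold change 0.79 with SE 0.47, edgeR unadjusted p = 0.131). For these last 2 genes the lines did not overlap, but the nearest tumours of the lines lay close together. The 8 ependyma markers, genes of motile cilia, summed to 11.3, 7.83, 43.9 and 87.1 CPM for GSC1 replicates 1 to 4 and 30.2, 61.7 and 121 CPM for GSC2 replicates 1 to 3. They shared the order of Cdh26 within GSC2, but GSC1 replicate 4 stood second in that sum and had little Cdh26. Their part in the level of Cdh26 was not tested.

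**Figure D2:**
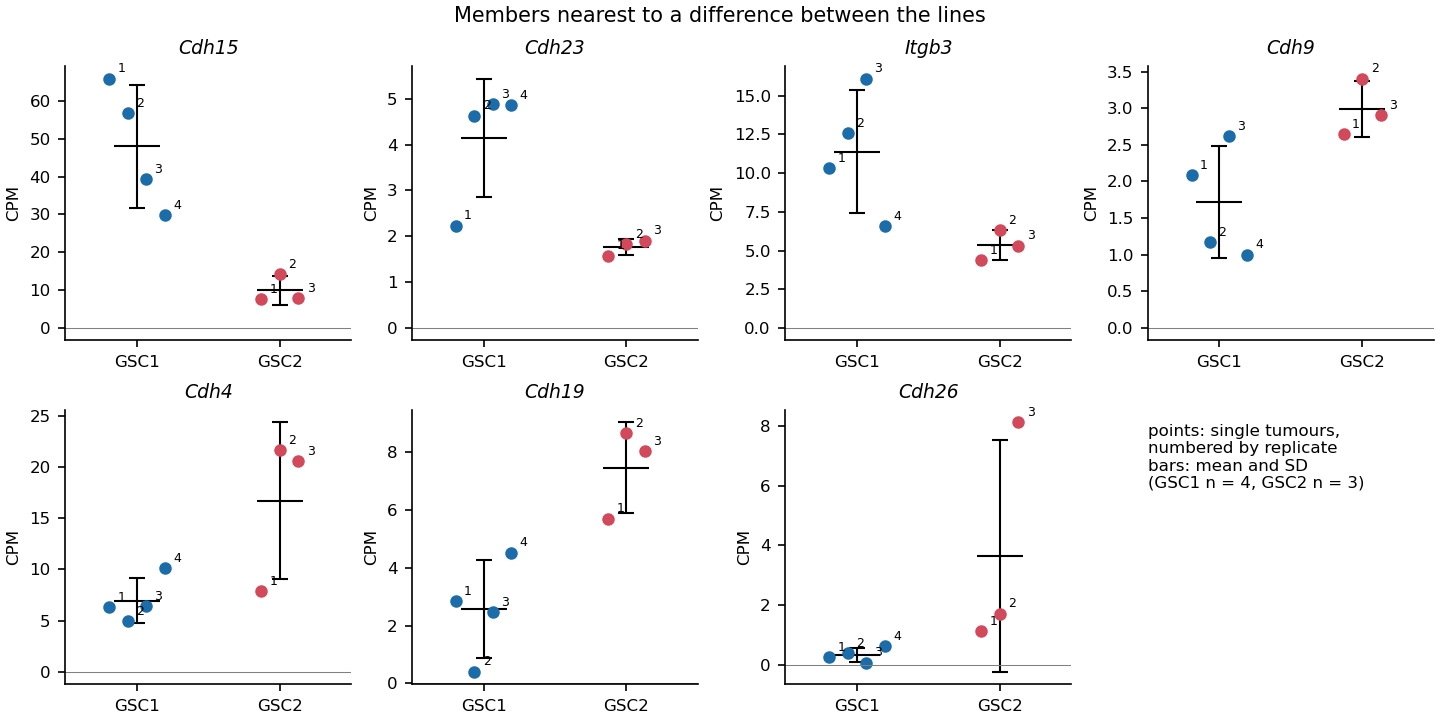
CPM of the 7 members with an unadjusted p under 0.05 between the lines, values that do not overlap, or a call at equal brain score. Points are single tumours, numbered by replicate, and bars are mean and SD (GSC1 n = 4, GSC2 n = 3). Cdh15, Cdh23 and Itgb3 sit higher in GSC1, and GSC2 replicate 3 sets the mean of Cdh26.

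More members followed the brain score than separated the lines. In a fit with the line and the score, 22 of the 40 followed the score at an adjusted p under 0.05 (55%), where 46.5% of all genes did, so the share of members is near the background. Of the 11 alpha subunits 7 fell with the score and 0 rose, of the 8 beta subunits 2 fell and 1 rose, and of the 21 cadherins 9 rose and 3 fell, where 23% of all genes fell and 23.5% rose. The median slope, in log2 per unit of score, was -0.32 over the alpha subunits, -0.02 over the beta subunits and 0.29 over the cadherins, against 0.00 over all genes (0.000688 before rounding). The score is measured in the same libraries, so the fit describes how members run with brain content and is no independent test.

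Without GSC1 replicates 3 and 4, the tumours with hindbrain genes, 0 members and 0% of all genes followed the score in edgeR's test over the 5 tumours left (6 members and 1635 genes at an unadjusted p under 0.05), while all 22 slopes kept their sign. The slopes of 4 type II cadherins stayed about as large or grew, at 0.75 against 0.82 over all tumours for Cdh10, 0.58 against 0.56 for Cdh8, 1.37 against 0.99 for Cdh12 and 1.41 against 1.32 for Cdh18. Others shrank, at 0.20 against 1.54 for Cdh3, -0.32 against -0.97 for Cdh6, -0.16 against -0.36 for Itga6 and 0.26 against 0.46 for Itgb8. Without GSC1 replicate 2, the tumour with the lowest score, 9 of the 22 stayed called and Itgb2 and Itgb4 were added. The calls lost there were those of all 7 alpha subunits, Itgb1, Itgb7, Cdh3, Cdh6, Cdh13 and Cdh20. Without GSC1 replicate 3, 14 of the 22 stayed called, and Itga2, Itga3, Itga6, Itga7, Itgb7, Itgb8, Cdh6 and Cdh13 did not. Cdh4 and Itgb6 were added there. Itga3 was also lost without GSC1 replicate 1 or 4, and Cdh3 without GSC1 replicate 1. Cdh19 was added without GSC1 replicate 1, and Cdh1 without GSC1 replicate 4. The share of all genes called was not worked out for the fits with 1 tumour left out. Whether these losses and gains are particular to the members is therefore not known. Without the 3 short-biased libraries, which include GSC1 replicates 3 and 4, 3 of the 22 were called over the 4 tumours left, the type II cadherins Cdh10, Cdh12 and Cdh18, all rising, where 6.19% of all genes were called and 5.9% rose, and 21 kept their sign, Itga3 being the exception. With the trend on transcript length removed from each library, all 22 were called in the same direction, and Cdh24, Itgb2 and Itgb4 as well, with 51.5% of all genes called.

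**Figure D3:**
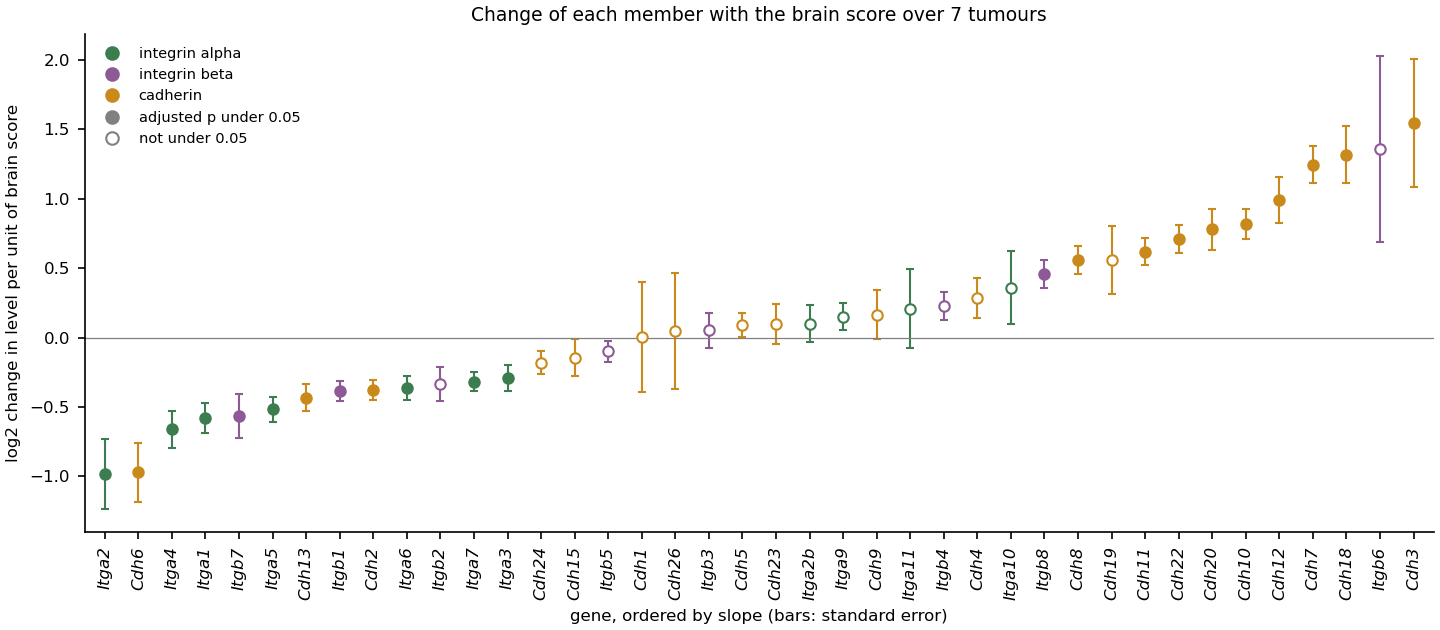
Log2 change of each of the 40 tested members per unit of brain score over the 7 tumours, with standard errors, ordered by slope and coloured by family. Filled points have an adjusted p under 0.05 in edgeR's quasi-likelihood test (22 of 40). Among the filled points all 7 alpha subunits lie on the falling side, and 9 of the 12 cadherins on the rising side, with Cdh2, Cdh6 and Cdh13 falling.

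The laminin and fibronectin receptor subunits were highest in GSC1 replicate 2, the tumour with the lowest brain score. Itga6, which pairs with beta 1 or beta 4, was at 152, 266, 84.0 and 105 CPM for GSC1 replicates 1 to 4 and 129, 152 and 113 CPM for GSC2 replicates 1 to 3 (slope -0.36 with SE 0.09, edgeR adjusted p = 0.0114). Itga7, a laminin receptor subunit best known from muscle, was at 157, 203, 87.0 and 85.3 CPM for GSC1 replicates 1 to 4 and 112, 111 and 101 CPM for GSC2 replicates 1 to 3 (slope -0.32 with SE 0.07, edgeR adjusted p = 0.00818). In both, GSC1 replicate 2 was highest and GSC1 replicates 3 and 4 were below every other tumour. Itga3 was at 114, 147, 57.8 and 79.0 CPM for GSC1 and 69.6, 82.8 and 48.2 CPM for GSC2, by replicate (slope -0.29 with SE 0.09, edgeR adjusted p = 0.0336), and its lowest tumour was GSC2 replicate 3. Itga5 was at 123, 200.04, 55.3 and 44.5 CPM for GSC1 and 71.1, 58.4 and 46.0 CPM for GSC2, by replicate (slope -0.52 with SE 0.09, edgeR adjusted p = 0.00324). Here GSC1 replicates 1 and 2 stood above the other 5 tumours, and GSC1 replicate 4 and GSC2 replicate 3 were lowest. None of these calls, nor that of Itgb1, stood without GSC1 replicate 2.

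Collagen receptor subunits differed in whether they were called on the score. Itga2, which pairs with beta 1 on collagen, was at 3.77, 17.7, 0.556 and 1.95 CPM for GSC1 replicates 1 to 4 and 5.04, 8.42 and 2.91 CPM for GSC2 replicates 1 to 3 (slope -0.98 with SE 0.25, edgeR adjusted p = 0.0148), with GSC1 replicate 2 above all others and GSC1 replicates 3 and 4 lowest. Itga1, the other collagen subunit that fell, ranged over 6.04 to 40.3 CPM (slope -0.58 with SE 0.11). Itga10 and Itga11, collagen subunits of cartilage and mesenchyme, were not called, at 0.652 to 3.09 CPM and 0.153 to 1.44 CPM. Itga4, for the subunit that binds VCAM-1 and fibronectin on leukocytes and other cells, fell over 4.29 to 30.4 CPM (slope -0.66 with SE 0.13, edgeR adjusted p = 0.00585), while the related Itga9 stayed within 5.77 to 9.75 CPM and was not called. Transcripts of Itga1, Itga4 and Itga2 have 10967, 9767 and 7108 bases, and the 3 genes were also called with the trend on transcript length removed.

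Among the beta subunits, Itgb1 fell and Itgb8 rose with the score. Itgb1 was at 1199.6, 1633, 660.4 and 587 CPM for GSC1 replicates 1 to 4 and 922, 677 and 627 CPM for GSC2 replicates 1 to 3 (slope -0.38 with SE 0.07, edgeR adjusted p = 0.00469). GSC1 replicates 1 and 2 were highest, and the other GSC1 tumours lay at the level of GSC2 replicates 2 and 3. Itgb8, whose product pairs with alpha V and frees latent TGF-beta and which astrocytes and neural progenitors are known to express, was at 54.0, 75.2, 207 and 154 CPM for GSC1 replicates 1 to 4 and 73.7, 142 and 132 CPM for GSC2 replicates 1 to 3 (slope 0.46 with SE 0.10, edgeR adjusted p = 0.00782). GSC1 replicates 3 and 4 stood above the rest, and the lowest tumour, GSC1 replicate 1, was second highest for Itgb1. The 10 astrocyte markers summed to 2672, 1980.3, 15060.4 and 12969 CPM for GSC1 replicates 1 to 4 and 2854, 7476 and 7568 CPM for GSC2 replicates 1 to 3. The sum was thus highest in the same tumours. Of the 10 markers 9 rose with the score, where 23.5% of all genes did, and Gja1 was not called. Not every marker shared the order of the sum. Slc1a3 was at 719 CPM in GSC2 replicate 3 against 405 CPM in GSC1 replicate 3. Slc1a2 was at 1596 CPM in GSC2 replicate 2 against 1336 CPM in GSC1 replicate 4. Itgb5, a further partner of alpha V, had the smallest ratio of highest to lowest tumour among the 4 leading members of each family, at 354, 272, 219 and 251 CPM for GSC1 and 250.3, 244 and 258 CPM for GSC2, by replicate, and was not called (slope -0.10 with SE 0.07, edgeR adjusted p = 0.303). Itgb4, the partner of alpha 6 in epithelia, was at 26.2 ± 9.08 against 31.9 ± 9.91 CPM in GSC1 and GSC2 and was not called.

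Itgb2 and its partners in myeloid cells and lymphocytes overlapped between the lines, while Itgae did not. Itgb2, the common beta subunit of leukocyte integrins, was at 89.3, 58.8, 25.6 and 43.9 CPM for GSC1 replicates 1 to 4 and 77.3, 57.1 and 71.3 CPM for GSC2 replicates 1 to 3 (log2 fold change 0.33 with SE 0.41; slope -0.34 with SE 0.12, edgeR adjusted p = 0.0525), lowest in GSC1 replicate 3. Its alpha partner in myeloid cells, Itgam, was at 175, 112, 65.7 and 99.2 CPM for GSC1 and 143, 130.1 and 147 CPM for GSC2, by replicate, also lowest there. The 13 microglia and macrophage markers summed to 1304 to 2714 CPM over GSC1 and 2115 to 3179 CPM over GSC2, and 1 of the 13 rose with the score (P2ry12) and 1 fell (Ptprc). Of the other partners, Itgal (lymphocytes) ranged over 3.70 to 20.2 CPM and Itgax (dendritic cells and macrophages) over 4.73 to 59.8 CPM; both fell with the score (edgeR adjusted p = 0.00652 and 0.0338). Itgad was at most 0.636 CPM and was not tested. Itgb7, the beta subunit of gut-homing lymphocytes, was at 9.06 ± 5.78 against 5.50 ± 0.824 CPM in GSC1 and GSC2 and fell with the score (edgeR adjusted p = 0.02). Its partner Itgae was higher in every GSC2 tumour, at 1.36, 1.18, 0.397 and 1.62 CPM for GSC1 and 4.78, 4.52 and 2.61 CPM for GSC2, by replicate (log2 fold change 1.80 with SE 0.55, edgeR unadjusted p = 0.0118, adjusted p = 0.872). Beside it, the 10 T and NK lymphocyte markers summed to 5.59, 11.1, 1.75 and 4.09 CPM for GSC1 replicates 1 to 4 and 22.8, 11.2 and 8.22 CPM for GSC2 replicates 1 to 3. These low sums overlapped between the lines. For 5 of the 7 markers tested all GSC2 tumours stood above all GSC1 tumours, where 3.05% of all genes tested did so. Cd3e and Cd3d had no read in GSC1. The part of lymphocytes in the level of Itgae was not tested.

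N-cadherin, T-cadherin and K-cadherin fell with the score, as most alpha integrins did. Cdh2 was at 364, 435, 172 and 176 CPM for GSC1 replicates 1 to 4 and 360.2, 309 and 237 CPM for GSC2 replicates 1 to 3 (slope -0.38 with SE 0.08, edgeR adjusted p = 0.00552). Cdh13, T-cadherin, was at 164, 238, 71.5 and 81.9 CPM for GSC1 replicates 1 to 4 and 185, 190.2 and 106 CPM for GSC2 replicates 1 to 3 (slope -0.43 with SE 0.10, edgeR adjusted p = 0.00852). In both genes GSC1 replicates 3 and 4 were the lowest tumours and GSC1 replicate 2 the highest, and the lines overlapped (log2 fold changes 0.07 with SE 0.40 and 0.21 with SE 0.47). Cdh6, K-cadherin, a type II cadherin of kidney and early neural tissue, fell most steeply among cadherins, at 23.6, 62.1, 3.93 and 4.38 CPM for GSC1 replicates 1 to 4 and 60.6, 79.6 and 24.7 CPM for GSC2 replicates 1 to 3 (slope -0.97 with SE 0.21, edgeR adjusted p = 0.00792). GSC1 replicates 3 and 4 were far below the other 5, and the lines overlapped (log2 fold change 1.22 with SE 0.97). At equal brain score the log2 fold change of Cdh6 was larger, 2.48 with SE 0.53, and not called in edgeR (adjusted p = 0.087), though DESeq2 called it.

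The cadherins that rose with the score were, apart from Cdh3, type II cadherins, most of them known from neurons. Cdh7 was at 2.32, 0.845, 19.0 and 16.9 CPM for GSC1 replicates 1 to 4 and 1.73, 5.01 and 3.81 CPM for GSC2 replicates 1 to 3 (slope 1.24 with SE 0.13, edgeR adjusted p = 0.00064). Cdh18 was at 2.96, 0.809, 13.5 and 24.9 CPM for GSC1 replicates 1 to 4 and 1.37, 6.49 and 4.26 CPM for GSC2 replicates 1 to 3 (slope 1.32 with SE 0.20, edgeR adjusted p = 0.00219). For both genes GSC1 replicates 3 and 4 stood above every other tumour. These are the tumours with Hoxb5, Slc6a5 (135 and 81.2 CPM against at most 1.89 CPM in the other 5) and, in replicate 4, Cbln3. Cdh22 showed the same split, with 40.8 and 42.5 CPM in GSC1 replicates 3 and 4 and 6.73 to 16.2 CPM in the other 5 (slope 0.71 with SE 0.10). Cdh12 was at 2.29, 0.551, 6.96 and 6.52 CPM for GSC1 and 1.07, 4.38 and 2.76 CPM for GSC2, by replicate (slope 0.99 with SE 0.16, edgeR adjusted p = 0.0029), and also followed the score without the short-biased libraries. Cdh10 (2.87 to 25.6 CPM), Cdh11 (12.2 to 54.7 CPM), Cdh20 (3.01 to 25.4 CPM) and Cdh8 (3.79 to 18.4 CPM) rose with slopes between 0.56 and 0.82. Cdh11 is also known from mesenchyme, and beside it the 9 markers of fibroblasts and meninges summed to 538, 516, 2451 and 1619.8 CPM for GSC1 replicates 1 to 4 and 582, 719.9 and 719.6 CPM for GSC2 replicates 1 to 3, highest in GSC1 replicates 3 and 4 as Cdh11 was; their part in its level was not tested. For Cdh8 GSC2 replicates 2 and 3 passed both tumours with hindbrain genes, and for Cdh20 GSC2 replicate 2 passed GSC1 replicate 4. Over the 10 members that rose, both GSC1 replicates 3 and 4 stood above the other 5 tumours in 8, and over the 12 that fell both stood below in 7. These tumours also had the highest brain scores (8.67 and 7.98). Members picked for their slope on the score therefore tend to be extreme in them, and the counts say nothing separate about brain region. The part of brain region in the slopes of these members was not tested beyond the fits without these tumours.

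**Figure D4:**
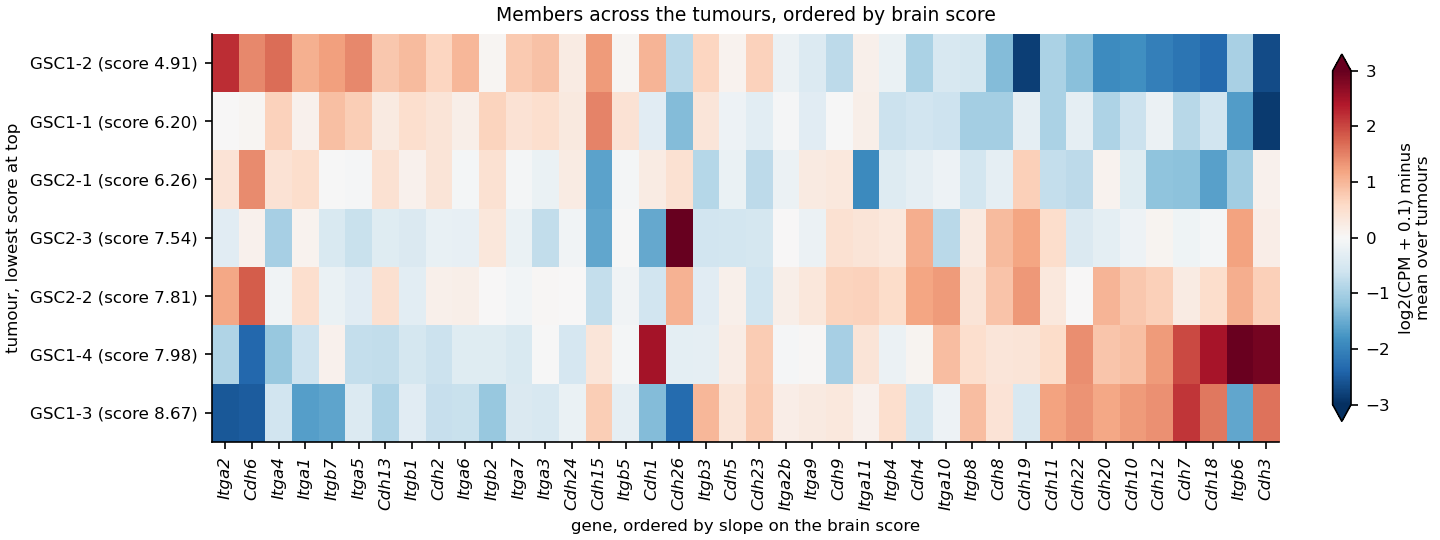
Log2(CPM + 0.1) of the 40 tested members minus each gene's mean over the tumours, with tumours in rows from the lowest brain score (4.91, GSC1 replicate 2) to the highest (8.67, GSC1 replicate 3) and genes in columns by slope. Red is above and blue below the mean, with colours ending at 3 log2 units. Itgb1, Cdh2 and most alpha subunits turn from red to blue down the rows and the cadherins that rose, such as Cdh7 and Cdh18, from blue to red, most clearly in the bottom pair of rows.

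Cadherins of epithelia and vessels followed no common pattern. Cdh1 was at 2.12, 5.55, 1.03 and 15.5 CPM for GSC1 replicates 1 to 4 and 3.21, 1.75 and 0.852 CPM for GSC2 replicates 1 to 3, highest in GSC1 replicate 4 and next in GSC1 replicate 2, and was not called (slope 0.01 with SE 0.40). Cdh3, P-cadherin, a type I cadherin of epithelia, was at 0.116, 0.147, 4.81 and 11.4 CPM for GSC1 replicates 1 to 4 and 1.63, 2.49 and 1.70 CPM for GSC2 replicates 1 to 3 (slope 1.54 with SE 0.46, edgeR adjusted p = 0.0259). Its lowest tumours were GSC1 replicates 1 and 2 and its highest was GSC1 replicate 4. Itgb6, the gene of an alpha V partner of epithelia, was at 0.0290, 0.110, 0.0397 and 3.09 CPM for GSC1 and 0.102, 0.772 and 0.852 CPM for GSC2, by replicate, with the same highest tumour, and was not called. Beside them, the 8 choroid plexus markers summed to 5.77, 3.68, 45.1 and 9125 CPM for GSC1 replicates 1 to 4 and 2158, 2925 and 4996 CPM for GSC2 replicates 1 to 3. They too were highest in GSC1 replicate 4 and lowest in GSC1 replicates 1 and 2, but low in GSC1 replicate 3, which was second for Cdh3. Otx2, a defining gene of that epithelium, was at 1.13, 0.919, 0.358 and 44.9 CPM for GSC1 and 6.21, 10.1 and 17.7 CPM for GSC2, by replicate. The part of choroid plexus in these levels was not tested. Cdh5 was at 21.7, 25.8, 31.5 and 28.0 CPM for GSC1 replicates 1 to 4 and 20.9, 26.8 and 16.4 CPM for GSC2 replicates 1 to 3 (log2 fold change -0.32 with SE 0.26; slope 0.09 with SE 0.08), the narrowest relative range among the 4 leading cadherins, and the 10 endothelial markers summed to 308 to 395 CPM over GSC1 and 236 to 351 CPM over GSC2. Of these 10 markers 5 rose with the score and 1, Flt1, fell, against 23.5% and 23% of all genes, so their sum does not show their separate courses. Cdh24 ranged over 11.2 to 19.8 CPM and was not called.

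Genes around the receptors were read in lists. Their calls along the score were made over all 7 tumours, and without GSC1 replicates 3 and 4 alone 0% of all genes passed. Among the 27 ligand genes tested, 0 passed between the lines in edgeR (4 at an unadjusted p under 0.05, where 4.21% of all genes had one). DESeq2 called 1 higher, Npnt, and 1 lower, Thbs1, where it called 0.55% and 0.65% of all genes. Npnt, the gene of nephronectin, the ligand of integrin alpha 8, was at a mean of 28.0 ± 8.57 CPM for GSC1 and of 119 ± 39.2 CPM for GSC2 and was also called at equal brain score (edgeR adjusted p = 0.0274). Its receptor gene Itga8, outside the rule, was at a mean of 3.44 ± 1.12 CPM for GSC1 and of 33.7 ± 5.27 CPM for GSC2. Thbs1, thrombospondin 1, was at a mean of 54.9 ± 7.09 CPM for GSC1 and of 18.9 ± 7.21 CPM for GSC2. Mfge8, a ligand of alpha V integrins, was at a mean of 405 ± 150.3 CPM for GSC1 and of 219 ± 32.7 CPM for GSC2 (edgeR unadjusted p = 0.0332). With the brain score 12 of the 27 fell, fibronectin (Fn1), tenascin C (Tnc) and the laminin genes Lama4, Lama5, Lamb1 and Lamc1 among them, and 7 rose, Col1a1 and Vtn among them, against 23% and 23.5% of all genes. Fn1 was at 1898, 3186, 799 and 720.2 CPM for GSC1 replicates 1 to 4 and 994, 795 and 291 CPM for GSC2 replicates 1 to 3, highest where Itga5 and Itgb1 were highest, in GSC1 replicates 1 and 2.

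Among the linkers inside the cell more genes fell than rose with the score, and none passed between the lines. Of the 30 talin, kindlin and adaptor genes tested 10 fell with the score and 2 rose (Cd81 and Lims2), against 23% and 23.5% of all genes. Those that fell included talin 1 (Tln1), vinculin (Vcl), paxillin (Pxn) and focal adhesion kinase (Ptk2), and Tln1 was at 368, 528, 76.5 and 112 CPM for GSC1 replicates 1 to 4 and 294, 259 and 82.4 CPM for GSC2 replicates 1 to 3. Between the lines edgeR called 0 of the 30. An unadjusted p under 0.05 was found for 1, Fyn, a Src family kinase, where 4.21% of all genes had one. Fyn was at a mean of 137 ± 16.3 CPM for GSC1 and of 203 ± 11.1 CPM for GSC2. The next by p were Zyx at 154 ± 53.2 against 102 ± 16.7 CPM and Ptk2b at 48.4 ± 50.3 against 143 ± 52.2 CPM, GSC1 given first. Of the 17 catenin and cadherin partner genes 6 fell with the score and 5 rose, again against 23% and 23.5% of all genes. The broadly used Ctnna1 and Ctnnd1 fell (slopes -0.38 with SE 0.08 and -0.31 with SE 0.07) and their neuronal relatives Ctnna2 and Ctnnd2 rose (0.69 with SE 0.07 and 0.54 with SE 0.12). Beta-catenin (Ctnnb1) was not called, at 935, 1113, 764 and 864 CPM for GSC1 and 839, 869 and 912 CPM for GSC2, by replicate. None of the 17 had an unadjusted p under 0.05 between the lines, where 4.21% of all genes had one. By p the first were Ptprm at 26.7 ± 12.4 against 41.0 ± 21.9 CPM, Pkp4 at 133 ± 12.96 against 162 ± 40.8 CPM and Nectin1 at 35.4 ± 11.97 against 28.3 ± 7.55 CPM.

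Repressors of E-cadherin and the protocadherins were read in the same way. Of the 10 repressor and shedding genes tested edgeR called 0 between the lines (2 at an unadjusted p under 0.05, where 4.21% of all genes had one). Snai2, which represses cadherin genes, was at 4.40, 4.74, 2.74 and 1.52 CPM for GSC1 replicates 1 to 4 and 0.153, 0.561 and 0.251 CPM for GSC2 replicates 1 to 3 (log2 fold change -3.34 with SE 0.69, edgeR adjusted p = 0.487, and 0.000141 in DESeq2), so that all GSC1 tumours stood above all GSC2 tumours, as for Cdh15. Twist2 was at 8.86 ± 6.65 against 2.36 ± 0.337 CPM. Of the 10, 7 fell with the score and 0 rose, and of the 11 protocadherins 5 rose and 0 fell, where 23% of all genes fell and 23.5% rose. Between the lines edgeR called 0 of the 11 protocadherins (2 at an unadjusted p under 0.05, again against 4.21% of all genes). By p these were led by Pcdh18 at 5.55 ± 2.76 against 20.1 ± 4.19 CPM, which DESeq2 called, Pcdh19 at 58.6 ± 21.4 against 27.9 ± 3.49 CPM and Pcdh7 at 73.9 ± 35.6 against 43.0 ± 12.1 CPM.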

How the data were processed

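The labels' protocols name RNeasy Plus Mini columns for RNA and a NEBNext Ultra kit for libraries. The values deposited are raw read counts per Ensembl gene for each tumour, made by the authors. The submitters' processing notes name TopHat2 2.0.11, HTSeq and the builds mm9 and dm3, with no role or order. Version and strand mode of HTSeq are not stated, and overlapping or antisense genes may share reads. Summary lines were left out, the reads on no gene being 6.19 to 14.2% of a library. Symbols and transcript lengths (the longest transcript) came from a later annotation, so no coordinates are given.

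Counts were tested with edgeR 4.0.16 in R 4.3.3 (TMM, filterByExpr, robust quasi-likelihood test, Benjamini-Hochberg adjustment over 16068 genes, threshold 0.05). The brain score entered as a covariate beside the line, with a prior count of 2 in its log2 CPM. Alternatives were DESeq2 1.42.0, limma-voom (limma 3.58.1), RLE factors, other filters, a loess offset on transcript length, a replicate block, each list of the score alone, each tumour left out, and fits without the short-biased libraries. Fits without both tumours with hindbrain genes, and without the short-biased libraries for the score, were added after seeing the data. The tests were run on simulated counts. No 2 libraries were alike within sampling noise.

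The members and gene lists were chosen with earlier results of these data known. Values in every tumour are given for members with an unadjusted p under 0.05, no overlap or a call at equal score, the 4 leading members of each family per kilobase, Itgb2 and Cdh5, and members with a 10-fold range that reach 5 CPM. Of each list the 3 genes with the smallest unadjusted p between the lines are named, except 1 that is not reported here. Further list genes and single markers were named after their values were seen.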

Additional observations from a re-analysis of the deposited data

Results flagged for a closer look

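In GSC1, the line with 4 tumours, each of the 40 tested members was screened for a tumour far from the other 3, by the gap to its nearest neighbour over the whole range against Dixon's 95% critical value. Chance flags about 1 in 20 genes, and 3 of the 40 stood out. Itgb6 was at 3.09 CPM in GSC1 replicate 4, where the next tumour of the line was at 0.110 CPM (gap over range 0.973), and the choroid plexus markers were highest in the same tumour. Cdh23 was at 2.23 CPM in GSC1 replicate 1, with the next at 4.63 CPM (gap over range 0.903). Itga11 was at 1.14 CPM in GSC1 replicate 4, with the next at 0.985 CPM (gap over range 0.834), a step of a fraction of 1 CPM.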

How the results depend on the processing

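Between the lines, 0 members passed in edgeR's test, under RLE factors, other filters, the length offset, limma-voom, each tumour left out, or without the short-biased or the hindbrain-gene tumours. DESeq2 called 2, and the brain score as a covariate 1. Over all genes the count of 0 became 192 in DESeq2, 83 with the brain score, 1 in limma-voom, 1 with no filter, 55 without the short-biased libraries and 44 without the tumours with hindbrain genes. All 7 members with per-tumour values in the line comparison kept their direction in every setting tried. They were picked in the same data for a small p or for values that do not overlap. Most settings could therefore not have turned their direction, and its stability is no measure of robustness. At equal brain score the 1 member called became 9 in DESeq2, 2 with the oligodendrocyte list alone as score, 0 with the neuron list alone, 0 without the tumours with hindbrain genes, and 0 to 2 with each tumour left out. Without the tumours with hindbrain genes the scores of the lines did not overlap, so the count from that fit does not decide whether the call holds. The 22 members following the score became 11 to 22 with each tumour left out (11 without GSC1 replicate 2), 3 without the short-biased libraries and 0 without the tumours with hindbrain genes, fits with fewer samples. For the score, the share of all genes called with 1 tumour left out was not worked out. The cause of the other changes was not tested. A mean of at least 5 CPM leaves Cdh9, Cdh19, Cdh23 and Cdh26 untested, and levels under 1 CPM, as for Cdh26 in GSC1, rest on few reads.

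Deviations of same-numbered tumours from their line's mean had correlations of 0.58, -0.31 and 0.41, and not every tumour matched its own number best. The signs of these correlations ran with the brain scores of the tumours. They therefore cannot show whether the replicate numbers pair tumours. With the replicate number as a block, 0 members and 0 genes passed in edgeR's test. A block beside the brain score was not run.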
